A study of Mus musculus with 9 samples.

Results

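Neat1 and Malat1 are long noncoding RNAs (lncRNAs, RNAs without a known protein product) that stay in the nucleus, each at its own nuclear body. Their entries were taken by gene symbol from the lncRNA expression table of the series, where they make up 2 of 26341 genes and 9 of 31549 transcript entries: 3 entries for Neat1 and 6 for Malat1. The series holds RNA sequencing of wild-type mouse hearts at 3 stages, each with 3 libraries. The groups are embryonic hearts at embryonic day 18 (E18), neonatal hearts 3 days after birth (3d) and adult hearts at 8 weeks (8w). The labels call the 3 libraries of a stage biological replicates but do not say whether each came from its own animal or from pooled hearts, so the p-values measure the spread between these libraries. The sources used here give neither strain nor sex, and no treatment or altered allele is named in any group.

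Neat1 is made in a short and a long form from the same start. The long form is the scaffold of the paraspeckle, a nuclear body built on this RNA with proteins such as NONO and SFPQ; the short form ends at an early polyadenylation site used by the CPSF6-NUDT21 complex, which HNRNPK holds back. Malat1 collects at nuclear speckles, where splicing factors of the SR family are stored. Neither the long form of Neat1 nor Malat1 ends in an ordinary poly(A) tail: RNase P cuts the transcript before a tRNA-like fold, and the remaining end is a triple helix of U-rich and A-rich tracts, which METTL16 binds on Malat1.

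In the GRCm38 build both genes lie on the minus strand of chromosome 19. Neat1 runs from 5824708 to 5845478 (20771 bases) and Malat1 from 5795690 to 5802672 (6983 bases), with 22035 bases between them, by the GENCODE annotation of that build. The sequence at which the short form of Neat1 ends is shown first, because the proportion of the 2 forms turns on this site. It lies at chr19:5842307-5842425 on the minus strand, within the single exon of the long form, and the capitals mark the polyadenylation signal AATAAA and the tetramer TGTA, the DNA form of the UGUA element bound by NUDT21.
Neat1 short form end: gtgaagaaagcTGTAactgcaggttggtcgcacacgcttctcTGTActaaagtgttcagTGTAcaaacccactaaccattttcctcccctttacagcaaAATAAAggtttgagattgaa
The signal begins at base 3153 of the long form, 19 bases before the annotated end of the short form. Searched on the transcript strand, 29.7% of 137494 annotated transcripts held AATAAA in their last 119 bases, and 1.85% held it together with at least 3 copies of TGTA, as this window does.

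The ends that carry the triple helix are shown next, because they set both RNAs apart from the polyadenylated short form. The Malat1 stretch lies at chr19:5795920-5796072 and the Neat1 stretch at chr19:5824708-5824802, both on the minus strand and both inside an exon. Capitals mark the U-rich tracts (at least 3 T, then C or GC, then at least 4 T) and the A-rich tract (at least 4 A, then GC, then at least 3 A).
Malat1: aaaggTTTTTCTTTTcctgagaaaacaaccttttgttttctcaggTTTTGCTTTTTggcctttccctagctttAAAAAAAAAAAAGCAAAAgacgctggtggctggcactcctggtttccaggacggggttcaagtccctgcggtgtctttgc
Neat1 long form: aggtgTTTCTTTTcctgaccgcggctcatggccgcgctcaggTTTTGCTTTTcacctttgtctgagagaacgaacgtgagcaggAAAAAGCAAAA
Each stretch held 2 U-rich tracts ahead of 1 A-rich tract. On the transcript strand, 3 of 135671 annotated transcripts (0.00221%) had that order of tracts in their last 150 bases. Both stretches were located by this same tract rule, so the share is no independent background for them. The full-length Malat1 entry could not be among those 3, because its tracts lie further from its end. The A-rich tract of Malat1 stands 292 bases before the annotated end of its full-length entry, whereas that of Neat1 is the end of the annotated long form.

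The libraries held 12196925 to 15613369 fragments assigned to genes, of which 1083096 to 1502888 fell on lncRNA genes. Although the labels name the cells cardiocytes, markers of other cell types were measured in every library, so the values describe a mixture; in such bulk RNA, fewer cells of a type and less RNA per cell cannot be told apart. The 7 cardiomyocyte markers summed to 16325 to 17718 FPKM (fragments scaled to transcript length and to the mapped fragments of the library) at E18, 16961 to 19010 at 3d and 25476 to 27550 at 8w, with Ttn listed at 0 throughout. Over the same stages the 6 markers of dividing cells summed to 366 to 464, 165 to 230 and 6.9 to 12 FPKM, and the 8 macrophage markers to 26.6 to 29.6, 28.9 to 46.3 and 78.6 to 90 FPKM. The 8 fibroblast markers summed to 997 to 1067, 826 to 1181 and 447 to 614 FPKM, and the 8 erythroid markers to 3276 to 3568, 1015 to 1368 and 702 to 1584 FPKM. In the same order the 7 endothelial markers summed to 251 to 274, 315 to 338 and 316 to 359 FPKM. The 6 smooth muscle and pericyte markers summed to 422 to 470, 360 to 461 and 342 to 416 FPKM. Genes of lung epithelium reached 55.6 and 31.6 FPKM in 3d replicates 2 and 3 and 99.1 FPKM in 8w replicate 2. They stayed below 0.4 FPKM in the other 6 libraries. Some gene-level results are therefore also given without those 3 libraries. The Neat1 forms, the Malat1 entries, the ratio of both RNAs, the neighbours and the correlations were not examined without them. Mitochondrial genes took 3.52 to 4.38% of fragments at E18, 8.29 to 9.80% at 3d and 2.51 to 3.21% at 8w.

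Neat1 rose at each stage. Its level, summed over its entries, was 23.4, 29.9 and 24.4 FPKM in the E18 hearts, 109, 91.3 and 70.2 FPKM in the 3d hearts and 241, 248 and 251 FPKM in the 8w hearts. The 3 stages did not overlap, and the 3d libraries were the most spread: means were 25.9 ± 3.51, 90.3 ± 19.5 and 247 ± 5.29 FPKM (SD, n = 3 each). Tests used limma on log2(FPKM + 1) over all 3635 lncRNA genes with a mean of at least 0.5 FPKM, with Benjamini-Hochberg adjustment and calls at an adjusted p under 0.05. The log2 fold change was 1.75 ± 0.18 (SE; 3.35-fold) for 3d over E18, with adjusted p = 0.0042. For 8w over 3d it was 1.46 ± 0.18 (2.76-fold, adjusted p = 0.000509), and for 8w over E18 it was 3.21 ± 0.18 (9.24-fold, adjusted p = 1.05e-05). Of the lncRNA genes tested, 4.29% were called for 3d over E18 (2.06% higher). For 8w the shares were 36.5% over 3d (7.95% higher) and 36.8% over E18 (7.68% higher). Ordered by log2 fold change from the highest, Neat1 stood at place 17 for 3d over E18, 88 for 8w over 3d and 6 for 8w over E18. The second step did not differ detectably from the first: the later change minus the earlier was -0.28 ± 0.30 on the log2 scale (adjusted p = 0.557). This difference turned positive in the fits on fragments, and ranged from -0.62 to 0.013 when 1 library was left out. The summed macrophage and cardiomyocyte markers were also highest at 8w, and those of dividing cells and fibroblasts lowest. Erythroid markers were highest at E18 (values above). Of 6 tested cardiomyocyte markers, 3 rose and none fell for 8w over E18. These counts were 3 and 2 under quantile normalization, 5 and 0 with libraries centred on their medians, and 6 and 0 by edgeR with TMM. In the main fit of that comparison 2 of 7 endothelial markers rose and 1 fell. Under quantile normalization 4 rose and none fell, and in the other settings named 5 rose and none fell. For smooth muscle and pericytes 3 of 6 rose and 1 fell in the main fit, and 4 rose and 1 fell in each of those settings. Of all 11930 coding genes tested, 17.8% rose and 47.3% fell in the main fit, and 3665 rose and 3185 fell with centred libraries. The part of these cell types in the Neat1 result was not tested.

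Leaving out the 3 libraries with lung markers left 3 E18 libraries, 1 3d library and 2 8w libraries, and Neat1 was still called in each comparison. With a single 3d library, both comparisons with 3d take their spread from the E18 and 8w libraries and assume that the 3d library varies like them. The log2 fold changes were then 2.04 for 3d over E18 (adjusted p = 0.0235), 1.16 for 8w over 3d (0.0236) and 3.20 for 8w over E18 (0.0014). In fragments, which are not divided by the length of an entry, the log2 fold change for 3d over E18 was 1.36 by edgeR with TMM. Of all fragments, Neat1 took 0.0318 ± 0.00656% in E18 hearts, 0.0823 ± 0.0211% in 3d hearts and 0.259 ± 0.0212% in 8w hearts (SD, n = 3 each). The share differed between stages by an exact permutation test over all arrangements of the 9 libraries (p = 0.00357, the smallest it can give; 0.00892 adjusted over a family of 5 such tests). With mitochondrial genes left out of the total the shares were 0.0331, 0.0906 and 0.267%. Among all genes ranked by fragments, Neat1 stood between places 333 and 554 at E18, 62 and 145 at 3d and 24 and 34 at 8w.

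**Figure D1:**
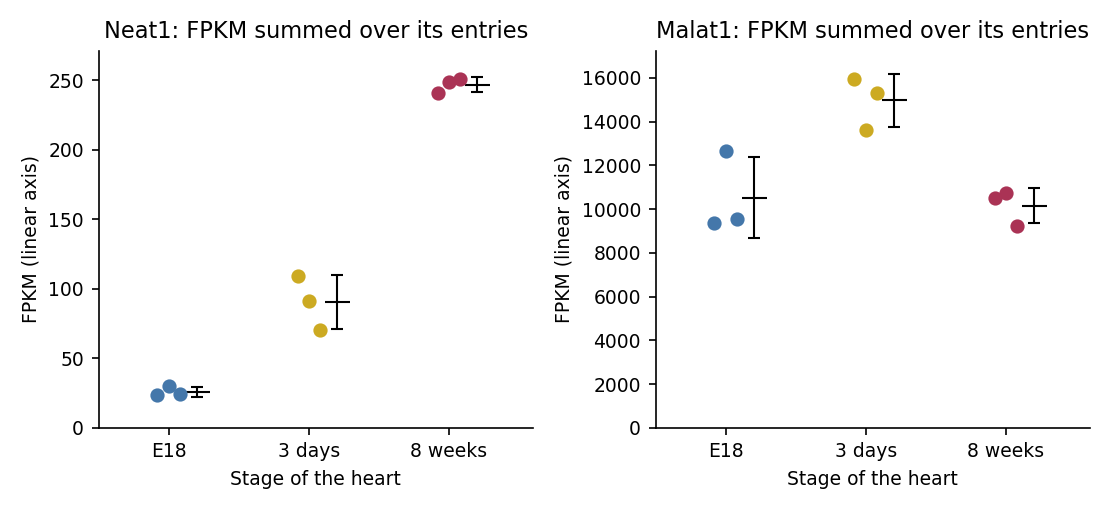
Level of Neat1 (left) and Malat1 (right) in each of the 9 libraries, in FPKM, by stage from E18 to 8w; points are libraries and bars the mean ± SD of 3. Neat1 stands at 23.4 to 29.9, 70.2 to 109 and 241 to 251 FPKM without overlap, while Malat1 is highest at 3d (13624 to 15962 FPKM) and overlaps between 8w and E18.

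Both forms of Neat1 took part, in unequal measure. The short form (RefSeq entry NR_003513, 3177 bases) had 13.8, 15.4 and 14.4 FPKM at E18, 77.4, 66.5 and 53.1 FPKM at 3d and 156, 166 and 187 FPKM at 8w. The long form (ENSMUST00000173672, 20771 bases) had 9.66, 14.5 and 10 FPKM at E18, 31.9, 24.8 and 17.2 FPKM at 3d and 84.5, 82.4 and 64.3 FPKM at 8w. For each form the stages were ordered E18, 3d, 8w with no library of one stage inside the range of another. The third entry, the spliced 1030-base ENSMUST00000174829, was listed at 0 in all 9 libraries and was not tested.

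In the fit over 4023 lncRNA transcripts, which called 4.03% of them for 3d over E18 (1.81% higher), 34.7% for 8w over 3d (7.48% higher) and 34.1% for 8w over E18 (6.86% higher), the short form rose in each comparison. Its log2 fold changes were 2.08 ± 0.16 (SE; 4.24-fold, adjusted p = 0.001), 1.37 ± 0.16 (2.58-fold, adjusted p = 0.000525) and 3.45 ± 0.16 (11-fold, adjusted p = 9.26e-06). The long form did not pass the test for 3d over E18, with a log2 fold change of 1.03 ± 0.25 (2.04-fold, adjusted p = 0.0634); it was called there with libraries centred on their medians (adjusted p = 0.0473), by edgeR with TMM (0.0406) and by DESeq2 (7.66e-05). It rose for 8w over 3d, by 1.64 ± 0.25 (3.11-fold, adjusted p = 0.00186), and for 8w over E18, by 2.67 ± 0.25 (6.35-fold, adjusted p = 0.000136). The entries share their first bases, so the division of fragments between them is the authors' estimate rather than a direct count.

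The composition of Neat1 differed between stages. The short form supplied 58.8, 51.5 and 59.0% of Neat1 FPKM at E18, 70.8, 72.9 and 75.5% at 3d and 64.9, 66.8 and 74.4% at 8w, which averaged 56.5 ± 4.26, 73.1 ± 2.39 and 68.7 ± 5.0% (SD, n = 3 each). All 3d and all 8w libraries lay above all E18 libraries, and 3d and 8w overlapped. The exact permutation test over the 3 stages gave p = 0.0107 (0.0134 adjusted over the family of 5), with differences of 16.6 points for 3d minus E18, -4.36 for 8w minus 3d and 12.2 for 8w minus E18. The exact two-sided tests of stage pairs gave p = 0.1, 0.3 and 0.1, and 0.1 is the smallest that 3 libraries against 3 allow. The ratio of short to long form, on the log2 scale, averaged 0.38 at E18, 1.44 at 3d and 1.15 at 8w. Because the long form is the longer, it held most fragments at each stage: the short form took 15.8 ± 2.18, 28.2 ± 2.46 and 24.4 ± 4.53% of Neat1 fragments in the same order.

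**Figure D2:**
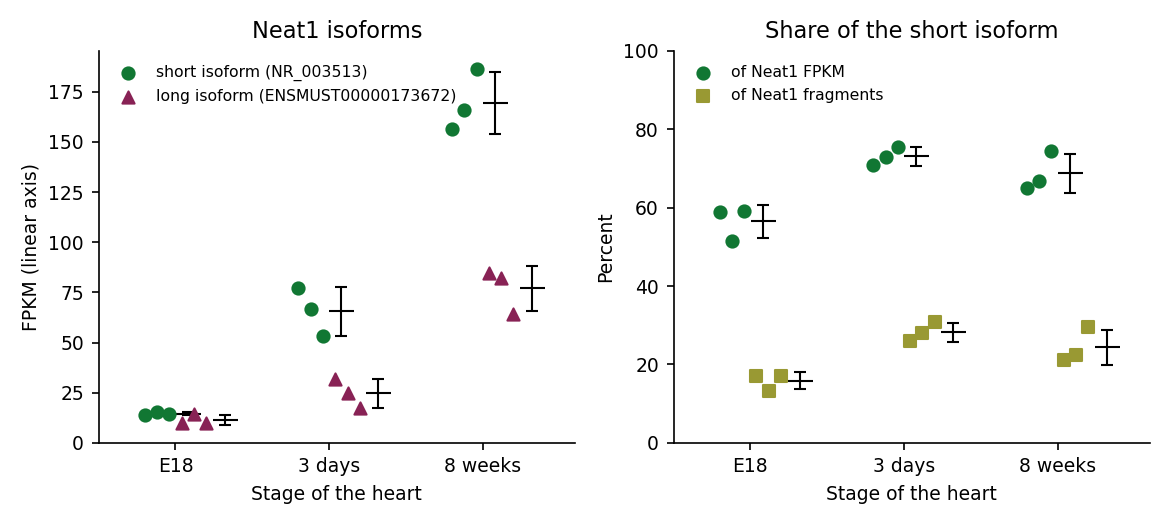
Neat1 by form in each library: FPKM of the short and of the long form, and the share of Neat1 FPKM and of Neat1 fragments from the short form in percent, by stage; points are libraries and bars the mean ± SD of 3. Both forms increase in level from E18 to 8w, and the short-form share of FPKM is 51.5 to 59.0% at E18, 70.8 to 75.5% at 3d and 64.9 to 74.4% at 8w, lowest at E18.

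Malat1 was far more abundant and followed another course, with its highest level at 3d. Summed over its entries it had 9376, 12657 and 9535 FPKM at E18, 15962, 13624 and 15324 FPKM at 3d and 10487, 10742 and 9244 FPKM at 8w. Every 3d library exceeded every library of the other stages, and 8w overlapped E18. It was the lncRNA gene with the most fragments in all 9 libraries, with 31.6 to 39.1% of lncRNA fragments. Among all genes it was first or second by fragments. Means were 10523 ± 1850.3 FPKM for the E18 hearts, 14970.5 ± 1209 for the 3d hearts and 10157 ± 801 for the 8w hearts (SD, n = 3 each).

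Malat1 did not pass the test for 3d over E18, with a log2 fold change of 0.52 ± 0.16 (SE; 1.43-fold, adjusted p = 0.12). It fell for 8w over 3d, by a log2 fold change of -0.56 ± 0.16 (0.679-fold, adjusted p = 0.0294), where 28.6% of lncRNA genes were called lower. Of the 9 fits that each left out 1 library, the one without E18 replicate 2 kept this call (adjusted p 0.0198 to 0.125 over the 9). With the libraries centred on their medians, a scaling that removes the shift of -0.30 in the median lncRNA gene, the change was -0.27 and was not called (adjusted p = 0.233). Without the libraries with lung markers it was -0.70 (adjusted p = 0.163). For 8w over E18 the log2 fold change was -0.04 ± 0.16 (adjusted p = 0.871), and median centring, edgeR with TMM and DESeq2 turned its sign, DESeq2 with a call (0.24, adjusted p = 0.0018). The second step differed from the first by -1.08 ± 0.29 on the log2 scale (adjusted p = 0.0347, where 17.4% of lncRNA genes were called and 13% lower), and again the fit without E18 replicate 2 alone kept that call.

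As a share of all fragments Malat1 took 3.10, 3.57 and 3.17% at E18, 4.33, 4.24 and 4.32% at 3d and 3.15, 2.98 and 2.67% at 8w. The 3d libraries stood above all others, and 8w and E18 overlapped. The exact permutation test over the 3 stages gave p = 0.00714 (0.0119 adjusted over the family of 5), and differences were 1.01 points for 3d minus E18, -1.36 for 8w minus 3d and -0.35 for 8w minus E18 (exact p = 0.1, 0.1 and 0.2). Without mitochondrial genes in the total the mean shares were 3.42, 4.73 and 3.02%.

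The Malat1 sum has 6 entries behind it, and they did not all behave alike. The full-length entries NR_002847 (6982 bases) and ENSMUST00000172812 (6983 bases) are each 1 exon and cover the same bases, so how their fragments divide has no reading of its own. NR_002847 had 2517, 2815 and 2587 FPKM at E18, 3282, 3275 and 3273 FPKM at 3d and 2277, 2161 and 1875 FPKM at 8w. ENSMUST00000172812 had 1201, 1386 and 1233 FPKM at E18, 1649, 1603 and 1600 FPKM at 3d and 1088, 1032 and 932 FPKM at 8w. In both, the 3d libraries were highest and close together, and the 8w libraries lay below all E18 libraries. NR_002847 fell for 8w over 3d with a log2 fold change of -0.64 ± 0.12 (SE, adjusted p = 0.00534) and ENSMUST00000172812 with one of -0.67 ± 0.12 (adjusted p = 0.00394). Of all entries, 27.2% were called lower there. Both calls held in all 9 fits that left out a library, and both were lost under quantile normalization, edgeR with TMM and DESeq2 (log2 fold changes between -0.46 and -0.12). For 8w over E18 the values were -0.33 (adjusted p = 0.0744) and -0.32 (adjusted p = 0.0739), and for 3d over E18 they were 0.31 (0.197) and 0.35 (0.153), none of them called. When Malat1 was taken as the sum of these entries alone, the log2 fold change for 8w over 3d was -0.65 (adjusted p = 0.00456).

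The short spliced entries carried most of the Malat1 FPKM though few of its fragments, because the unit divides by length. ENSMUST00000173314 (556 bases, at the 3′ end) had 2650 to 3253 FPKM at E18, 4057 to 4451 at 3d and 2514 to 3362 at 8w, and fell for 8w over 3d (log2 fold change -0.57 ± 0.16, adjusted p = 0.0237). ENSMUST00000173499 (485 bases, at the 5′ end) had 2292 to 3440, 3073 to 5028 and 1745 to 2319 FPKM in the same order, and fell for 8w over 3d (-0.83 ± 0.25, adjusted p = 0.0334). The first call was lost without any 3d library or 8w replicate 1 or 3, and the second without E18 replicate 3, 3d replicate 3 or any 8w library; neither held with centred libraries. The 656-base entries ENSMUST00000174808 and ENSMUST00000173523 were divided unevenly between libraries: the second was listed at effectively 0 in the 3 E18 libraries and in 8w replicate 2, and at 295 to 1097 FPKM in the other 5. Neither was called in any comparison. Their sum was 688 to 1764 FPKM at E18, 1367 to 3342 at 3d and 1868 to 2203 at 8w (exact permutation p = 0.254 over the 3 stages).

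The full-length entries supplied 39.6, 33.2 and 40.1% of Malat1 FPKM at E18, 30.9, 35.8 and 31.8% at 3d and 32.1, 29.7 and 30.4% at 8w. All 8w libraries lay below all E18 libraries, and the 3d libraries overlapped both. The exact permutation test over the 3 stages gave p = 0.0464, also after adjustment over the family of 5, and between 0.0464 and 0.136 when 1 library was left out, where only the fit without E18 replicate 2 stayed under 0.05. Of Malat1 fragments the full-length entries held 92.6, 90.7 and 89.4% on average at E18, 3d and 8w.

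**Figure D3:**
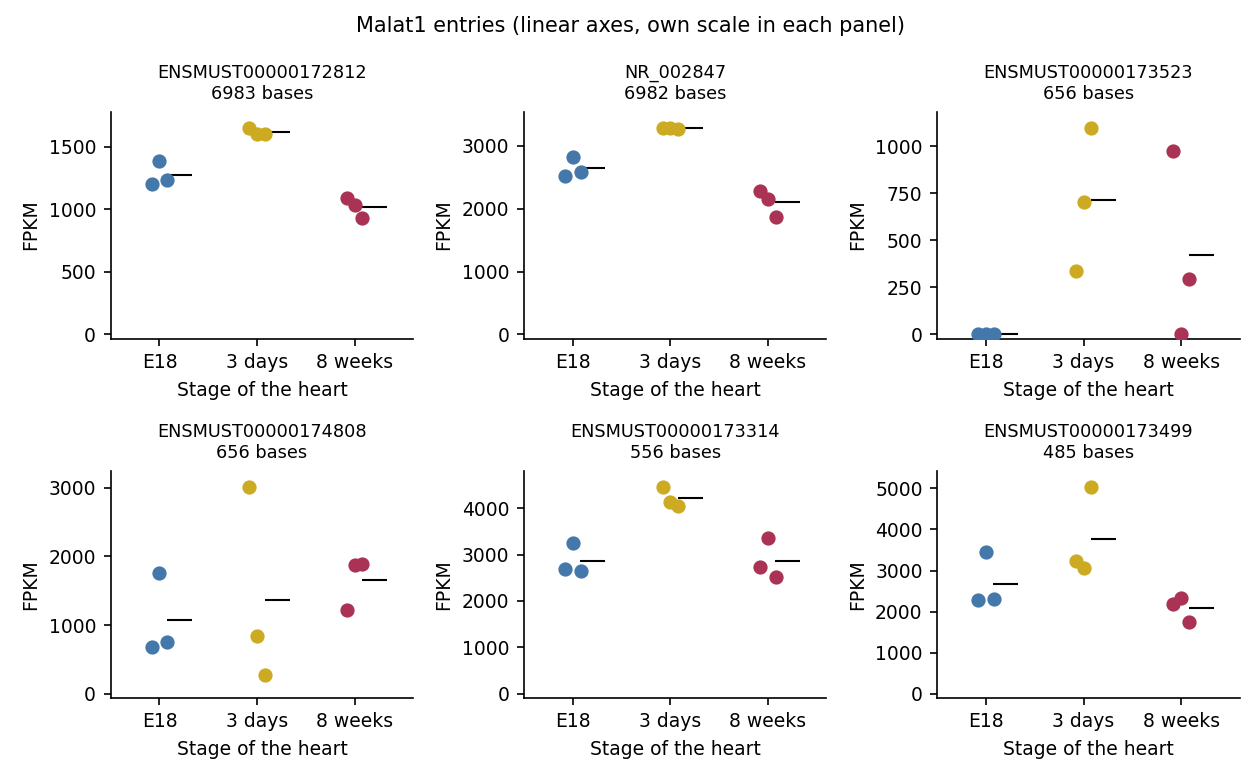
FPKM of the Malat1 entries in each library by stage; points are libraries and ticks the stage means. Both full-length entries are highest at 3d (3273 to 3282 and 1600 to 1649 FPKM) and lowest at 8w, while the 656-base entries spread widely between libraries of 1 stage.

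The balance between both RNAs, which does not depend on how libraries are scaled, moved toward Neat1 at each stage. The log2 ratio of Neat1 to Malat1 FPKM was -8.64, -8.72 and -8.61 at E18, -7.19, -7.22 and -7.77 at 3d and -5.45, -5.44 and -5.20 at 8w. The 3 stages did not overlap. The ratio differed between stages by the exact permutation test (p = 0.00357, the smallest it can give, 0.00892 adjusted over the family of 5), with differences of 1.27 for 3d minus E18, 2.03 for 8w minus 3d and 3.30 for 8w minus E18 (exact p = 0.1 each, the smallest for 3 against 3). From fragments these differences were 0.97, 2.24 and 3.20, and with only the full-length Malat1 entries in the ratio they were 1.46, 2.13 and 3.59.

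While Neat1 rose, the mRNAs of the listed paraspeckle assembly proteins fell between 3d and 8w. The lists of partner genes were tested in a fit over 11930 coding genes with a mean of at least 1 FPKM, in which 26.4% were called for 3d over E18 (5% higher and 21.4% lower), 58.4% for 8w over 3d (21.4% higher and 37.1% lower) and 65.1% for 8w over E18 (17.8% higher and 47.3% lower). The median coding gene shifted by -0.15, -0.18 and -0.32 in these comparisons on the log2 scale. With libraries centred on their medians, the 2120 higher and 5641 lower coding genes for 8w over E18 became 3665 and 3185, the 2550 and 4421 for 8w over 3d became 3378 and 3187, and the 596 and 2557 for 3d over E18 became 1146 and 997. Of 9 genes listed for paraspeckle assembly, 2 fell and none rose for 3d over E18 (median log2 fold change -0.15, and 0.03 with centred libraries). All 9 fell for 8w over 3d (median -0.92) and for 8w over E18 (median -1.15). With centred libraries 8 of the 9 fell in each comparison with 8w, and edgeR with TMM called 7 of 9 lower for 8w over 3d and 8 of 9 for 8w over E18. Without the libraries with lung markers the counts were 2, 9 and 9, and without 3d replicate 1 they were 4, 8 and 9. Over the same stages the summed markers of dividing cells were lowest at 8w and those of macrophages highest, those of fibroblasts were lower at 8w than at the earlier stages, and those of erythroid cells were lower at 3d and 8w than at E18 (values above). Of the 8 fibroblast markers, 2 rose and 5 fell for 8w over 3d (median log2 fold change -1.48). The part of these cell types in the counts of paraspeckle genes was not tested.

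NONO, SFPQ and PSPC1 are the paired RNA-binding proteins that coat Neat1. Nono mRNA was at 123 ± 1.6 FPKM at E18, 91.4 ± 0.923 at 3d and 41.7 ± 4.11 at 8w, and fell in all 3 comparisons (log2 fold changes -0.42, -1.12 and -1.54; adjusted p = 0.00663, 2.11e-06 and 1.25e-07), the first not with centred libraries (-0.24, adjusted p = 0.103). Sfpq averaged 174 ± 6.07 FPKM at E18, 172 ± 11.3 at 3d and 73.8 ± 6.2 at 8w. It was not called for 3d over E18 (log2 fold change -0.02, adjusted p = 0.909) and fell for 8w over 3d (-1.21, adjusted p = 1.51e-06). Pspc1 averaged 20.6, 19.1 and 6.5 FPKM over the 3 stages and fell for 8w over 3d (-1.43, adjusted p = 2.73e-06). Dazap1, another RNA-binding protein of the body, averaged 42.7, 39.3 and 18.3 FPKM, with -1.02 for 8w over 3d (adjusted p = 0.000428). Rbm14, with a prion-like domain, fell for 3d over E18 already (-0.59, adjusted p = 0.0153, and 0.0531 with centred libraries), at 13.6, 8.8 and 6.44 FPKM.

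Most genes of the other 23 paraspeckle proteins fell in the comparisons with 8w: 2 rose and 8 fell for 3d over E18 (median log2 fold change -0.19), none rose and 19 fell for 8w over 3d (median -0.75), and none rose and 21 fell for 8w over E18 (median -0.96). With libraries centred on their medians the counts were 3 and 3, 3 and 17, and 1 and 16, and without the lung-marked libraries 2 and 7, 1 and 17, and 0 and 21. Hnrnpa1, a splicing repressor, averaged 168, 129 and 48.6 FPKM at E18, 3d and 8w, and fell by 1.77 on the log2 scale for 8w over E18 (adjusted p = 9.53e-08). Hnrnpf, a splicing regulator that binds G-rich RNA, averaged 96, 60.4 and 35.6 FPKM and fell by 1.41 in that comparison (adjusted p = 3.04e-07). The cold-inducible RNA-binding proteins peaked at 3d: Cirbp averaged 21.5, 41 and 15.8 FPKM and Rbm3 69.8, 86.5 and 20.7 FPKM. Cirbp rose for 3d over E18 (0.89, adjusted p = 0.00326), as did Rbm3 (0.31, adjusted p = 0.0457), and Rbm3 then fell for 8w over 3d (-2.01, adjusted p = 1.01e-07). Rbm7, of the nuclear exosome targeting complex, fell for 3d over E18 (-1.17, adjusted p = 0.00447), at 15, 6.4 and 9.23 FPKM.

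At the speckle, where Malat1 gathers, 24 genes for speckle and SR proteins were measured. For 3d over E18 1 rose and 6 fell (median log2 fold change -0.04, and 0.14 with centred libraries), for 8w over 3d 1 rose and 20 fell (median -0.72), and for 8w over E18 all 24 fell (median -0.85). Median centring called 19 of the 24 lower for 8w over E18 and edgeR with TMM 18; without the lung-marked libraries all 24 were again lower. Srsf1, the founding SR splicing factor, averaged 159, 108 and 65.9 FPKM and fell at each step (-0.54, adjusted p = 0.0036, and -0.72, adjusted p = 0.000117). Srsf3, the smallest SR protein, averaged 150, 99.7 and 65.8 FPKM and fell for 8w over E18 (-1.17, adjusted p = 3.76e-06). Son, the scaffold of the speckle, averaged 186, 192 and 137 FPKM and fell for 8w over 3d (-0.48, adjusted p = 0.00108). Srsf7, an SR protein that also acts in polyadenylation, was the member that rose for 8w over 3d (0.79, adjusted p = 0.00524), after a fall for 3d over E18 (-1.76, adjusted p = 0.000464); it averaged 25, 6.7 and 12.1 FPKM. Clk1, a kinase that phosphorylates SR proteins, was the one that rose for 3d over E18 (0.54, adjusted p = 0.00351), with 75.9, 111 and 54 FPKM.

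**Figure D4:**
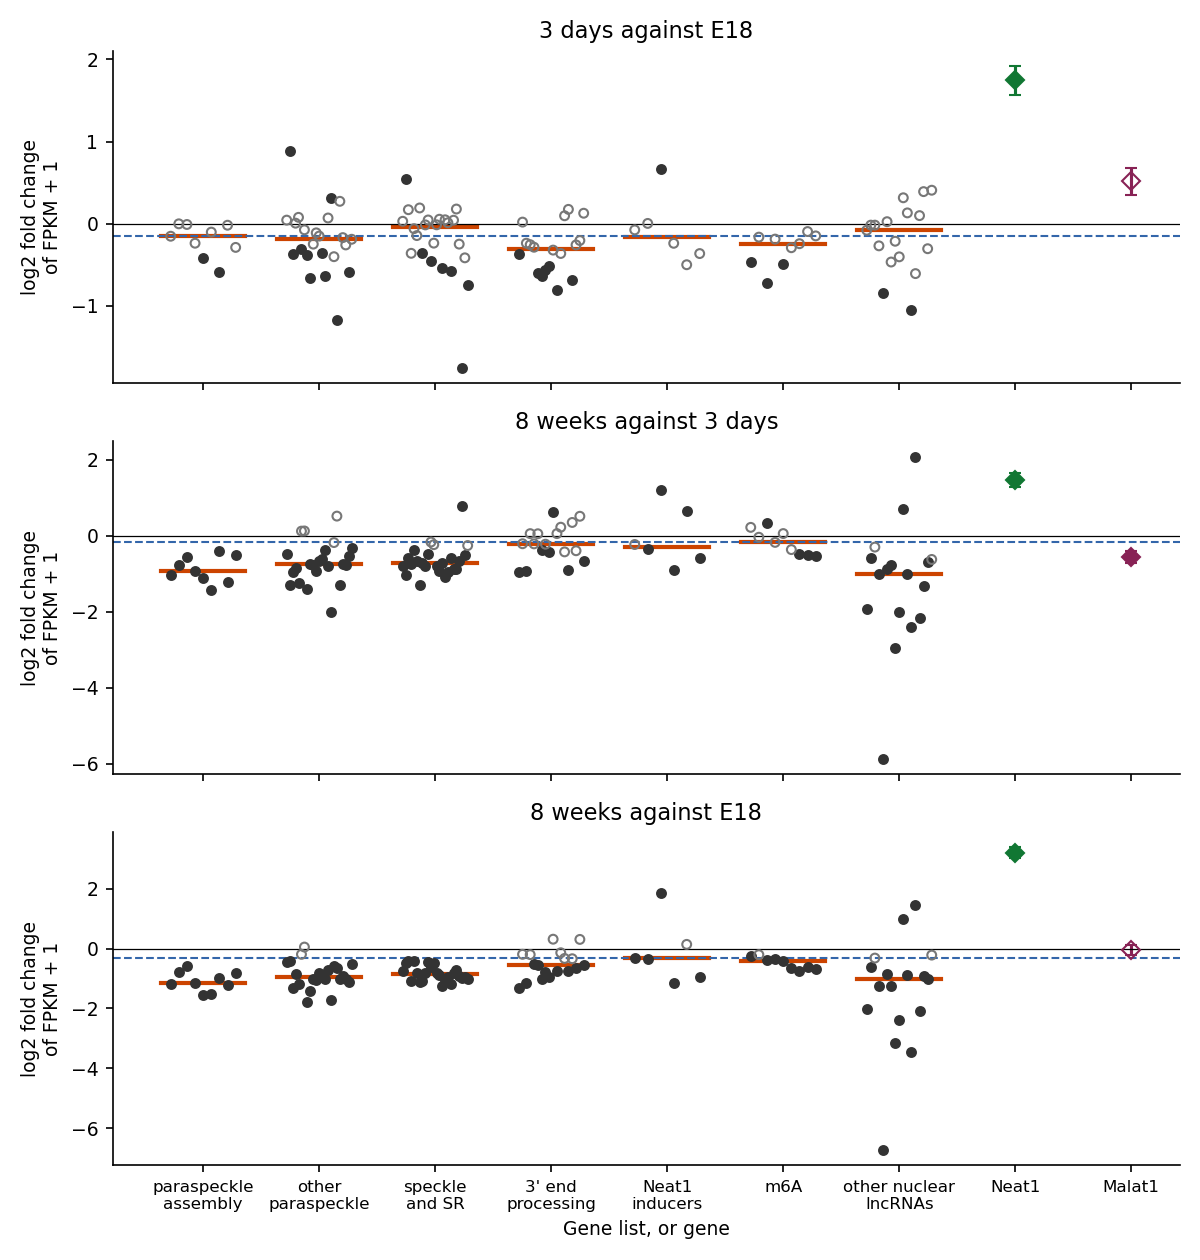
Log2 fold change of each tested gene of the partner lists for 3d over E18, 8w over 3d and 8w over E18; filled points were called, orange bars are list medians and the blue dashed line is the median of all tested coding genes. Neat1 and Malat1 are drawn as diamonds with their SE: Neat1 lies above 0 in each comparison, opposite to the medians of the paraspeckle and speckle lists for 8w over 3d.

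A list of 18 genes covered 3′ end processing and stability of Neat1 or Malat1. Hnrnpk, Cpsf6 and Nudt21 are in it and were also counted in the paraspeckle lists above. Of the 18, none rose and 7 fell for 3d over E18 (median log2 fold change -0.30). For 8w over 3d 1 rose and 6 fell (median -0.22), and for 8w over E18 none rose and 11 fell (median -0.54). With centred libraries these counts were 0 and 3, 3 and 5, and 1 and 6. Cpsf6 and Nudt21, which form the complex that makes the short form of Neat1, both fell at each step. Cpsf6 averaged 71.1 ± 1.68, 55 ± 5.81 and 28.3 ± 4.38 FPKM, with log2 fold changes of -0.37 (adjusted p = 0.0453) and -0.94 (adjusted p = 7.29e-05). Nudt21 averaged 22 ± 1.77, 13.9 ± 2.64 and 10.4 ± 1.49 FPKM, with -0.64 (adjusted p = 0.0103) and -0.38 (adjusted p = 0.0471). With centred libraries the first step of Cpsf6 (-0.19, adjusted p = 0.347) and both steps of Nudt21 (-0.46, adjusted p = 0.0731, and -0.20, adjusted p = 0.331) were not called. Hnrnpk, which restrains that site, averaged 456 ± 8.13, 388 ± 41.3 and 205 ± 18.8 FPKM; its change for 3d over E18 was -0.24 (adjusted p = 0.117) and it fell for 8w over 3d (-0.92, adjusted p = 2.95e-05). The subunits Pop4 and Pop7 of RNase P, which cuts the 3′ ends, were both lower for 8w over E18, at -0.95 (adjusted p = 1.22e-05) and -0.75 (adjusted p = 0.0246, and 0.174 with centred libraries). Elac2, the nuclease that trims the small tRNA-like RNA released from Malat1, averaged 7.25, 7.36 and 6.24 FPKM and was not called (-0.19 for 8w over E18, adjusted p = 0.146, and 0.17 with centred libraries). Mettl16 averaged 10.2, 6.33 and 6.6 FPKM and fell for 3d over E18 (-0.60, adjusted p = 0.00486), with 0.05 for 8w over 3d (adjusted p = 0.717).

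Among 6 transcription factors known from cell work to induce Neat1, 1 rose and none fell for 3d over E18, 2 rose and 3 fell for 8w over 3d, and 1 rose and 4 fell for 8w over E18, the last becoming 2 and 2 with centred libraries. Epas1, the hypoxia-inducible factor HIF2 alpha, rose in each: it averaged 27.1 ± 0.441 FPKM at E18, 43.7 ± 5.15 at 3d and 101 ± 2.16 at 8w, with log2 fold changes of 0.66 (adjusted p = 0.0013), 1.20 (2.23e-06) and 1.86 (5.46e-08). Its relative Hif1a averaged 89.1, 75.4 and 40 FPKM and fell for 8w over 3d (-0.91, adjusted p = 6.67e-05). Hsf1, the heat shock factor, rose for 8w over 3d (0.64, adjusted p = 0.0106), and Trp53, which encodes p53, fell in that comparison (-0.58, adjusted p = 0.0316, and 0.112 with centred libraries). Of 9 genes for the methylation of adenosines in RNA (m6A), a mark carried by Malat1, 3 fell for 3d over E18, 1 rose and 3 fell for 8w over 3d, and 8 fell for 8w over E18. That last count was 1 under median centring, 1 under edgeR with TMM and 4 under quantile normalization. Ythdc1, the nuclear m6A reader, averaged 27.3, 24.7 and 16.8 FPKM, with -0.67 for 8w over E18 (adjusted p = 0.000975, and 0.091 with centred libraries).

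Most of the tested lncRNAs from a list of 24 others were lower in the adult. Where in the cell each of them acts was not measured. Among all lncRNA genes 2.23%, 28.6% and 29.1% were called lower in the 3 comparisons, taken as before. Of the 24 listed, 18 were found and 17 tested. For 3d over E18 none rose and 2 fell (median log2 fold change -0.08). For both 8w over 3d (median -0.995) and 8w over E18 (median -1.01), 2 rose and 13 fell. In each of these comparisons with 8w, 2 rose and 11 fell with centred libraries, and 2 rose and 9 fell by edgeR with TMM. H19, an imprinted RNA of growing tissue, averaged 1413 ± 130.0, 789 ± 134 and 12.4 ± 1.83 FPKM, with -5.88 for 8w over 3d (adjusted p = 9.08e-07). The imprinted RNAs Meg3, Rian and Mirg, which share a cluster, changed by -2.95, -2.40 and -1.998 in that comparison (adjusted p = 0.000259, 1.77e-05 and 0.000107). Snhg1, a host of small nucleolar RNAs, averaged 45.2, 48.6 and 10.2 FPKM (-2.17, adjusted p = 8.21e-05). Neat1 moved against the median of this list, and Malat1, by log2 fold change for 8w over E18, lay above the median of this list.

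Of the tested genes next to the pair, none was called higher at both steps, as Neat1 was. Within 200 kb lie 20 coding genes of the table, of which 17 were tested. None rose and 1 fell for 3d over E18 (median -0.03). For 8w over 3d 2 rose and 5 fell (median -0.32), and for 8w over E18 none rose and 7 fell (median -0.27). Among all coding genes tested, 5% rose and 21.4% fell for 3d over E18. The shares were 21.4% and 37.1% for 8w over 3d, and 17.8% and 47.3% for 8w over E18. Because so few coding genes rose for 3d over E18, the lack of such a neighbour says little about these 17 genes. The nearest gene, Frmd8, which lies 4.2 kb from Neat1 and encodes a partner of the iRhom proteins, averaged 3.83, 3.04 and 1.9 FPKM. It fell for 8w over E18 (-0.74, adjusted p = 0.00585). The adjusted p of Frmd8 there was 0.0954 after quantile normalization and 0.00103 by edgeR with TMM. Capn1, a calpain protease gene at 143.1 kb, rose for 8w over 3d (0.41, adjusted p = 0.0442). Pola2, a subunit of DNA polymerase alpha at 95.1 kb, fell in all 3 comparisons (-0.56, -0.89 and -1.45; adjusted p = 0.0122, 0.000212 and 4.25e-06), at 8.31, 5.37 and 2.42 FPKM. The other genes called lower for 8w over E18 were Rnaseh2c, Kat5, Pcnxl3, Fam89b and Ltbp3, with log2 fold changes between -1.02 and -0.59, and none of these 5 was called there after quantile normalization or by edgeR. Kcnk7, Tigd3 and Slc22a20 were below the minimum level.

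**Figure D5:**
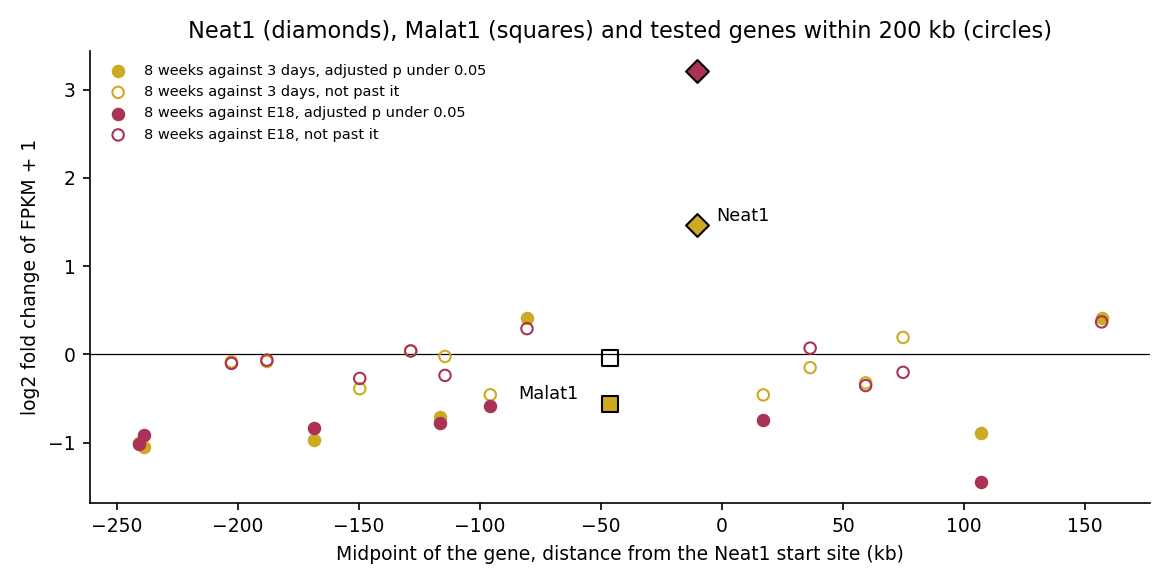
Log2 fold change of Neat1 (diamonds), Malat1 (squares) and the 17 tested coding genes within 200 kb (circles) for 8w over 3d and 8w over E18, by position relative to the pair; filled symbols were called. Neat1 stands above all neighbours in both comparisons, and the neighbours lie between -1.45 and 0.41.

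The genes whose course over the 9 libraries was most like each RNA were listed as a description, by Pearson correlation of log2(FPKM + 1) among 8499 coding and 745 lncRNA genes with a mean of at least 5 FPKM; the libraries share their 3 stages, which any gene that changes with stage follows. Nearest to Neat1 were Plin4 (r = 0.995), a protein of lipid droplets, Mlycd (r = 0.992), the enzyme that breaks down malonyl-CoA, Myh6 (r = 0.991), the adult cardiac myosin heavy chain, Trabd2b (r = 0.990) and the endothelial phosphatase gene Ptprb (r = 0.989). Myh6 averaged 1133 ± 254, 3085 ± 748 and 6767 ± 777 FPKM at E18, 3d and 8w, and Plin4 9.84 ± 0.403, 23.8 ± 1.56 and 49 ± 2.14 FPKM. The lncRNA genes nearest to Neat1 were AK083183 (r = 0.981), Gm14290 (r = 0.960) and BB667085 (r = 0.960). Nearest to Malat1 were Ankrd44 (r = 0.982), the deubiquitinase gene Zranb1 (r = 0.950), Arhgef5 (r = 0.940), the ubiquitin ligase gene Trim25 (r = 0.926) and Pi15 (r = 0.914), and among lncRNA genes AK181773, AK084721 and 2310015A10Rik (r = 0.953, 0.934 and 0.918). Ankrd44 averaged 10.1 ± 1.7, 14.4 ± 0.329 and 9.76 ± 0.568 FPKM and shared with Malat1 a maximum at 3d. AK181773 averaged 6.2 ± 10.7 FPKM at E18 and 67.5 ± 35.3 FPKM at 3d, and was effectively 0 at 8w (0.000195 FPKM), unlike Malat1.

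Circular RNAs from the same loci, counted from reads across back-splice junctions, were rare. The table listed 13 under Malat1 with 59 of 32813 junction reads and 2 under Neat1 with 4. Malat1 junction reads summed to 22 at E18, 22 at 3d and 15 at 8w, and those of Neat1 to 2, 0 and 2. Only 2 circles, both of Malat1, reached 10 reads and were tested by edgeR among 626, of which 0.319% were called for 3d over E18, 2.88% for 8w over 3d and 4.95% for 8w over E18. The circle at chr19:5799498-5800576 had 5, 2 and 5 reads at E18, 1, 1 and 0 at 3d and none at 8w, and was not called (adjusted p = 0.052 for 8w over E18). That at chr19:5802238-5802426, which begins at an exon edge of ENSMUST00000173499 and is listed in circBase, had 0, 1 and 1 reads at E18, 1, 4 and 6 at 3d and 2, 0 and 2 at 8w (adjusted p = 0.707 for 3d over E18). Neither circle was called in any of the 3 comparisons, and the unadjusted p of the first for 8w over E18 was 0.00274.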

How the data were processed

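Total heart RNA of 9 libraries was sequenced after SMARTer library preparation, per the labels. Reads were trimmed with cutadapt 1.9.1 and aligned with HISAT2 2.0.4 to GRCm38/mm10, with levels by Cuffdiff, per the submitters' processing notes; the sources used here do not give annotation or strand setting. The authors deposited FPKM and estimated counts per transcript entry, summed here per gene, and counts of circRNA junction reads (9 circRNA columns of no sample here were not used). The deposited estimated counts carry 1 factor per library (0.803 to 1.12; 81.1 to 82.6% of low values whole within 0.01) and were divided by it and rounded; these recovered reads are called fragments. FPKM were tested with limma 3.58.1 (trend) on log2(FPKM + 1), all 9 libraries in 1 fit, which understates changes of low genes. Recovered reads went to edgeR 4.0.16 and DESeq2 1.42.0 as alternatives. Scripts were tested on simulated data. The members and lists were chosen with earlier results of these data known. Genes named from a list were up to 4 with the greatest called change per comparison or its defining members, from which the text takes examples. Gene coordinates come from GENCODE vM21 (GRCm38), in place of the merged locus of the files. Lists were taken by symbol. A fold change is on the log2(FPKM + 1) scale.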

Additional observations from a re-analysis of the deposited data

How the results depend on the processing

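The direction and call of Neat1 held in all 3 comparisons under every alternative fitted, with ranges of 1.301 to 2.04 for 3d over E18, 1.16 to 2.10 for 8w over 3d and 2.96 to 3.52 for 8w over E18. Other results depended on scaling, on the use of fragments in place of FPKM or on single libraries, and the cause was not tested. The difference of steps of Neat1 became positive under edgeR with TMM (0.71), edgeR on library size (0.28), DESeq2 (0.77) and fragments per longest entry (0.36), and was -0.62 to 0.013 without 1 library. Malat1 for 3d over E18 was called by DESeq2 (0.35, adjusted p = 8.58e-06). Malat1 for 8w over 3d was not called without the filter, with 2 stages only or with the replicate block (-0.56 each), under median centring (-0.27), TMM (-0.14) or DESeq2 (-0.11), or without the lung-marked libraries (-0.70), and was -0.63 to -0.49 without 1 library. For 8w over E18 it was positive under median centring (0.27), TMM (0.23) and DESeq2 (0.24), and -0.12 to 0.10 without 1 library. Its difference of steps lost its call with a pseudocount of 0.1, without the filter and with the block (-1.08 each), under median centring (-0.80), TMM (-0.52) and library size (-0.94), without lung-marked libraries (-1.31), and was -1.22 to -0.98 without 1 library.

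Single entries changed sign as follows. For 3d over E18, quantile normalization gave -0.35 for ENSMUST00000172812 and 0.00 for NR_002847, and ENSMUST00000174808 was 0.40 under TMM, 0.41 on library size, 0.37 under DESeq2 and -1.03 to 0.70 without 1 library. For 8w over 3d, quantile normalization gave 0.27 for ENSMUST00000173314. For 8w over E18, that entry was 0.32 under quantile normalization and median centring, 0.58 under TMM and DESeq2, 0.17 on library size and -0.12 to 0.094 without 1 library. In that comparison TMM and DESeq2 gave 0.20 for both full-length entries and 0.23 for ENSMUST00000173499, and median centring gave 0.0026 for ENSMUST00000172812.

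The count of lncRNA genes called for 3d over E18, 156, was 102 with 2 stages, 61 with the replicate block, 238 by DESeq2, 52 without lung-marked libraries and 22 to 157 without 1 library, fewest without E18 replicate 3. For 8w over 3d the 1328 calls became 759 under the higher filter and 753 without lung-marked libraries, and for 8w over E18 the 1336 became 795 under the higher filter. Their split moved with scaling: 289 higher and 1039 lower for 8w over 3d became 487 and 514 under median centring, and 279 and 1057 for 8w over E18 became 501 and 538. Partner genes called for 3d over E18 numbered 28 of 86, and 18 under quantile normalization, 17 under median centring and 18 under TMM. The share called moved likewise among all coding genes tested: 26.4% in the main fit, and 18.9, 18 and 22.1% in those settings. Within 100 kb, 3 of 11 tested neighbours were called for 8w over 3d and 4 for 8w over E18. Of all coding genes tested, 58.4% and 65.1% were called in these comparisons. From fragments, the change in ratio for 3d over E18 was 0.97, that of the short-form share 12.39 points, and the full-length Malat1 share differed by -3.22 points for 8w over E18; its permutation p was 0.0464 to 0.136 without 1 library. Same-numbered libraries of different stages had correlations of deviations from -0.128 to 0.099, and differently numbered ones from -0.132 to 0.132. The same-numbered libraries were thus no more alike, but 3 libraries per stage cannot settle whether the numbers pair them. Apart from the results above, the block changed no call of either gene.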

Other observations

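The lncRNA table also lists, in the same merged locus but not under Neat1, an entry named AK148054 of 3004 bases, the summed exon length of the spliced short Neat1 transcript in GENCODE. It was listed at effectively 0 in 6 libraries, and at 0.188 FPKM in 3d replicate 1, 1.72 FPKM in 3d replicate 2 and 16.8 FPKM in 8w replicate 2. Its values were not added to Neat1.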
